A study of Mus musculus with 5 samples.

Results

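The genes described here were the 3 transforming growth factor beta (TGF-beta) ligands Tgfb1, Tgfb2 and Tgfb3, the receptors Tgfbr1, Tgfbr2 and Tgfbr3, the intracellular mediators Smad3, Smad4 and Smad7, and Tgfbi, an extracellular matrix gene named for its induction by TGF-beta. These 10 genes were taken by symbol from the 55397 Ensembl genes of the deposited normalised count table, and 10 of 10 passed the filter on low values. RNA had been sequenced in bulk from 5 Akt/Notch liver tumours, which resemble cholangiocarcinoma (CCA), a cancer with bile duct features. All mice were female C57BL/6N, were injected at 8 weeks of age through the tail vein so that hepatocytes took up plasmid, and received CMV-Sleeping Beauty transposase, pT3-EF1a-AKT and pT3-EF1a-NICD-IRES-rtTA, in which the EF1a promoter drives Akt and the NOTCH1 intracellular domain. The 2 Control tumours also carried pT3-Tre-IRES-GFP and the 3 Prox1 overexpression (Prox1 OE) tumours pT3-Tre-FLAG-mmProx1-IRES-GFP, behind a promoter that doxycycline switches on. Both groups were fed doxycycline (6.25%) from day 21, giving overexpression from week 3 to week 4. Dissection was either after 1 week of doxycycline-driven expression or when a humane endpoint was reached; the labels do not tell which for a given tumour, and do not say that the tumours of a group came from separate mice, so that p-values measure the spread between these libraries.

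TGF-beta ligands are secreted in a latent form, held by latent TGF-beta binding proteins in the matrix and released by integrins, proteases and thrombospondin. The active ligand binds TGFBR2, a kinase that switches on TGFBR1, with TGFBR3 (betaglycan) as a co-receptor that presents TGF-beta2 in particular. TGFBR1 phosphorylates SMAD2 and SMAD3, which join SMAD4 to act in the nucleus, while SMAD7 is an induced inhibitor that blocks TGFBR1. In liver the pathway is known for activating stellate cells, for scarring and for restraining hepatocyte growth, and it takes part in bile duct formation.

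In Prox1 OE tumours Tgfb2 and Tgfb3 were lower than in Control tumours, by 3.49-fold and 2.10-fold, whereas Tgfb1 levels overlapped between the groups. Tgfbr1, Smad3, Smad4 and Smad7 were lower by 1.49-fold to 1.72-fold. Tgfbr2 and Tgfbr3 overlapped between the groups, and Tgfbi was 1.27-fold higher without passing the test. In limma, 6 of the 10 genes were lower at an adjusted p under 0.05 and 0 were higher, against 16.2% lower and 17.1% higher (33.3% in either direction) among all 17105 genes tested. The median log2 fold change of the 10 genes was -0.59, against -0.02 for all genes tested. Prox1 OE values were all below both Control values for 6 genes, where this held for 32.4% of all genes tested, and all above for Tgfbi, where it held for 30.9% (63.3% in either direction). The count of 6 lower genes fell to 1 without Control replicate 1, where 2.79% of all genes were lower, and to 2 without Control replicate 2, where 4.88% were, fits in which the lone Control library was assumed to vary like the Prox1 OE libraries. By edgeR on recovered reads the counts were again 6 lower and 0 higher, against 15.7% and 18.0% of all genes, as they were by DESeq2, against 18.6% and 20.3%. At an unadjusted limma p under 0.05 they were 6 lower and 1 higher, against 22.9% and 22.8%.

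**Figure D1:**
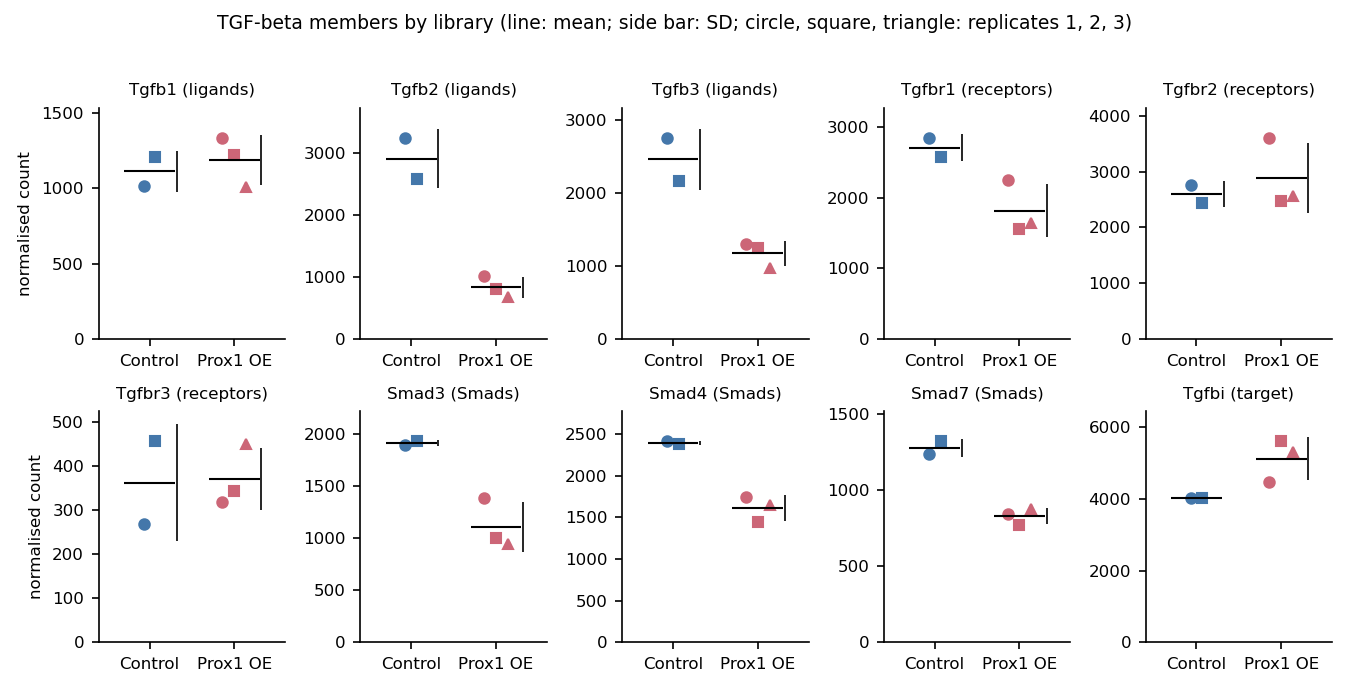
Normalised counts (y axis, each panel from 0) of the 10 genes in each library, with Control in blue, Prox1 OE in red, symbols for replicates 1 to 3, horizontal lines at group means and side bars of 1 SD. Prox1 OE values of Tgfb2, Tgfb3, Tgfbr1, Smad3, Smad4 and Smad7 lie below both Control values, those of Tgfbi lie above them under the deposited scaling, and those of Tgfb1, Tgfbr2 and Tgfbr3 overlap with Control.

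Libraries held 48740863 to 56629477 reads, and each of the 10 genes had 292 to 4893 reads per library. Prox1 had 4153 and 4664 normalised counts in Control and 48090, 11113 and 8231 in Prox1 OE (log2 fold change 1.90, SE 0.66, limma adjusted p = 0.061), so that Prox1 OE replicate 1 stood far above the others. Without that replicate 6 of the 10 genes were again lower and 1, Tgfbi, was higher, against 21.9% of all genes in each direction. Markers of hepatocytes were higher in Prox1 OE (6 of 7 called, summed level per kilobase of exon 269277 to 465224 in Control and 973932 to 1519920 in Prox1 OE) and those of cholangiocytes lower (6 of 7 called, 447658 to 490392 and 313799 to 424227). Spp1, which was not called, made up 96.5% to 98.5% of the cholangiocyte sum, and without it the sums were 14210 to 15613 in Control and 4747 to 6250 in Prox1 OE. Without Alb, 68.4% to 82.3% of the hepatocyte sum, the hepatocyte sums were 64035 to 124195 and 182319 to 412089. Of 8 macrophage markers 3 were called higher (summed level 9187 to 9253 and 14339 to 18955), as were 4 of 6 T cell markers (95.6 to 120 and 161 to 248), 1 of the 3 tested B cell markers and 3 of 8 stellate cell and fibroblast markers (1871 to 2288 and 2513 to 3958). Of 8 endothelial markers 3 were higher and 1 was lower (1767 to 2304 and 2283 to 3512, or 1652 to 2075 and 1492 to 2076 without Clec4g), and of the neutrophil and platelet markers tested 0 of 2 each were called. Ly6g of neutrophils and Gp1bb of platelets had at most 3 reads in any library. The labels name transformed hepatocytes, but the markers show a mixed tissue in which fewer cells of a type and less RNA per cell cannot be told apart. The part of these markers in the results below was not tested.

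Among the ligands, Tgfb2 (ENSMUSG00000039239, mm10 chromosome 1, 186622792 to 186705989, minus strand; like all 10 a protein-coding gene) had 3245 and 2575 normalised counts in Control tumours and 1014, 813 and 674 in Prox1 OE tumours. The lowest Control value was 2.54 times the highest Prox1 OE value. The groups averaged 2910 ± 474 (SD, n = 2) and 834 ± 171 (SD, n = 3), for a log2 fold change of -1.81 (SE 0.19, 95% interval -2.27 to -1.36, limma adjusted p = 0.0024). Tgfb2 was called lower under every scaling, filter, pseudocount and tool tried and with any library left out, with log2 fold changes of -2.24 to -1.65. TGF-beta2 is the ligand that depends most on betaglycan for receptor binding.

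Tgfb3 (ENSMUSG00000021253, chromosome 12, 86056745 to 86079041, minus strand) had 2762 and 2173 normalised counts in Control and 1298, 1253 and 970 in Prox1 OE. Again both Control values were above all Prox1 OE values. Means were 2468 ± 416 (SD, n = 2) and 1174 ± 178 (SD, n = 3), giving a log2 fold change of -1.07 (SE 0.17, limma adjusted p = 0.0049). Leaving out Control replicate 1 ended the call (-0.90, limma adjusted p = 0.063). Of Tgfb3 exon bases, 257 (7.6%) are shared with the opposite-strand transcript Gm48008 and 163 (4.82%) with Gm37804, at mean normalised counts of 0.827 and 0, and of Tgfb2 exon bases 124 (2.14%) with the antisense gene Gm29491 at 5.08. Whether counting used strand was not stated, so reads in these stretches cannot be assigned to a strand.

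Tgfb1 (ENSMUSG00000002603, chromosome 7, 25687002 to 25705077, plus strand), the ligand made by many immune and stromal cells, had 1017 and 1208 normalised counts in Control and 1335, 1219 and 1010 in Prox1 OE. Prox1 OE replicate 3 lay below both Control libraries and the other 2 above them. The log2 fold change was 0.09 with a 95% interval of -0.28 to 0.46 (SE 0.16, limma adjusted p = 0.69), an interval that lies above the fitted change of Tgfb2 and of Tgfb3.

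Because Tgfb1 and Tgfb2 had unlike values, their upstream sequences are shown, read from RefSeq for GRCm38.p6 (the sequence of mm10) as the 250 bases before the annotated start. Windows of 6 of the 10 genes (Tgfb1, Tgfb2, Tgfbr1, Tgfbr2, Smad3 and Tgfbi) were searched. Tgfbr1 had 2, at an upstream and a downstream start. Tgfb3, Tgfbr3, Smad4 and Smad7 were not searched, which does not show that they lack an annotated window. Capitals mark matches on either strand. The motifs searched were the TATA box with the letters TATAAA, the GC box with the letters GGGCGG, the E-box with the letters CACGTG, the core of the cAMP response element with the letters TGACG, and the core of the Smad-binding CAGA element with the letters CAGAC; none contains another.
Tgfb1, chr7:25686752-25687001, plus strand: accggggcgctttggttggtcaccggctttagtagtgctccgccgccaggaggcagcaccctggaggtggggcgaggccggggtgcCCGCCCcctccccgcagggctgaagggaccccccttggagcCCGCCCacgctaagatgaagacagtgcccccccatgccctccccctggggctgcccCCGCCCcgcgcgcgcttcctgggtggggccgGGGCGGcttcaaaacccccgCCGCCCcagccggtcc
Tgfb2, chr1:186705990-186706239, minus strand: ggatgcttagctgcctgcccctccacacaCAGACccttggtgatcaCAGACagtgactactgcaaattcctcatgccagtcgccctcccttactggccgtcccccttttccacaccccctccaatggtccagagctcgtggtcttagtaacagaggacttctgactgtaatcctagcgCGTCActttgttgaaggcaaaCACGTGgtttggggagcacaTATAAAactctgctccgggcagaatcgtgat

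The Tgfb1 window was 75.2% G or C and held 5 GC boxes, at 164, 123, 67, 36 and 16 bases before the start, with 0 matches to the other motifs. The Tgfb2 window was 53.6% G or C and held a TATA box beginning 31 bases before the start, an E-box at 51, a cAMP response element core on the opposite strand at 72 and Smad-binding cores at 221 and 204, with 0 GC boxes. Over 32851 RefSeq windows of the same length the median G or C content was 52.4%. The TATA box was found in 12.4% of them, the GC box in 32.7%, the E-box in 6.02%, the cAMP response element core in 17.8% and the Smad-binding core in 42.2%. Of the windows of the other 4 genes that were searched, TATA boxes were found in 0. GC boxes were found in the upstream window of Tgfbr1, in Smad3 and in Tgfbi. Smad-binding cores were found in the downstream window of Tgfbr1, in Tgfbr2 and in Tgfbi. These matches describe the letters of the reference and were not linked to any binding measurement.

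Within a library, the share of each ligand does not depend on the scaling between libraries. Per kilobase of merged exons, Tgfb1 made up 12.8% and 18.1% of the summed level of the 3 ligands in Control and 32.2%, 32.1% and 33.2% in Prox1 OE. Tgfb2 made up 35.5% and 33.5% in Control and 21.3%, 18.7% and 19.3% in Prox1 OE. For both ligands the groups were separate, with Tgfb1 taking a larger share and Tgfb2 a smaller share in all Prox1 OE libraries. Mean differences in share, Prox1 OE minus Control, were 17.1 percentage points for Tgfb1 and -14.8 for Tgfb2, each with an exact two-sided permutation p = 0.10, the smallest that 2 against 3 libraries can give (0.20 after Benjamini-Hochberg adjustment over 6 ratios). The Tgfb3 share was 51.7% and 48.4% in Control and 46.6%, 49.2% and 47.5% in Prox1 OE, which overlapped (difference -2.30 percentage points, exact p = 0.30, adjusted p = 0.45). That difference was -0.656 without Control replicate 1 and -3.95 without Control replicate 2. Shares depend on the length used. With the longest coding transcript (2175 bases for Tgfb1 in place of 5042), Tgfb1 made up 28.5% of the ligand level in Control and 51.8% in Prox1 OE as group means. With that length Tgfb3 made up 42.6% and 37.8% in Control and 32.1%, 34.0% and 32.5% in Prox1 OE, so that its groups were separate (difference -7.32 percentage points, exact two-sided permutation p = 0.10).

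**Figure D2:**
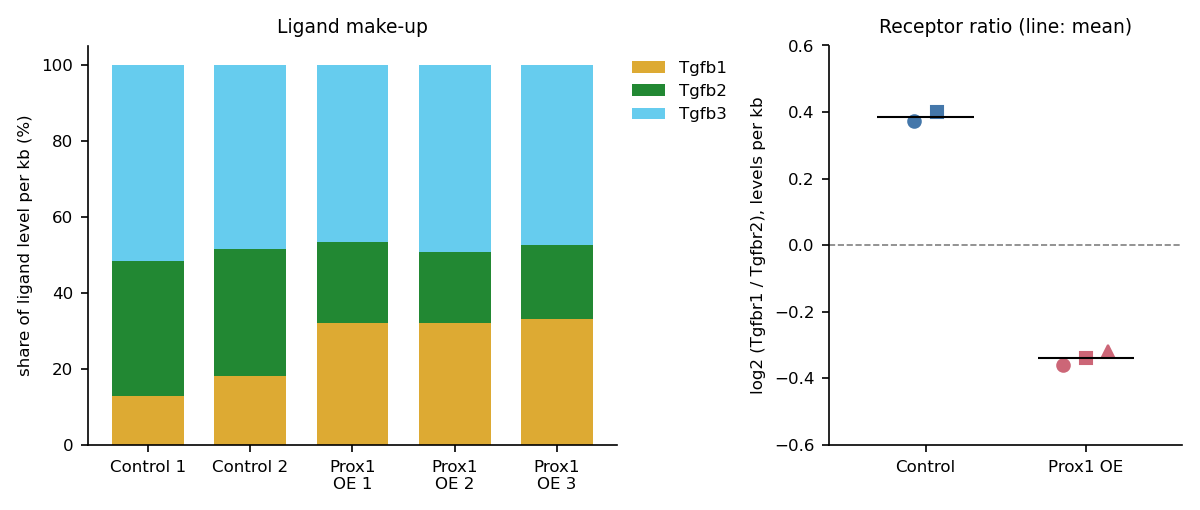
Left, bars from 0 to 100% split each library's summed ligand level per kilobase of merged exons among Tgfb1, Tgfb2 and Tgfb3. Right, the log2 ratio of Tgfbr1 to Tgfbr2 levels per kilobase in each library with group means as lines; ratios are 0.37 and 0.40 in Control and -0.36, -0.34 and -0.32 in Prox1 OE.

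The receptor kinases had unlike values. Tgfbr1 (ENSMUSG00000007613, chromosome 4, 47353222 to 47414931, plus strand), the type I receptor, had 2849 and 2571 normalised counts in Control and 2244, 1560 and 1640 in Prox1 OE. All Prox1 OE values were below both Control values, with replicate 1 the closest to them. Tgfbr1 changed by -0.60 on the log2 scale (SE 0.17, limma adjusted p = 0.035). This call did not hold without Control replicate 1 (-0.52, limma adjusted p = 0.22), Control replicate 2 (-0.67, 0.12), Prox1 OE replicate 2 (-0.50, 0.10) or Prox1 OE replicate 3 (-0.53, 0.089), nor without the filter (0.063) or the variance trend (0.085).

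Tgfbr2 (ENSMUSG00000032440, chromosome 9, 116084293 to 116175360, minus strand), the type II receptor that binds the ligand, had 2759 and 2440 normalised counts in Control and 3605, 2470 and 2564 in Prox1 OE. Prox1 OE replicate 1 was the highest library and the other 2 lay between the Control values. Its log2 fold change was 0.13 (SE 0.18, 95% interval -0.29 to 0.55, limma adjusted p = 0.61), and it turned to -0.04 without Prox1 OE replicate 1. In every library the 2 kinases could be set against each other. The log2 ratio of Tgfbr1 to Tgfbr2 per kilobase was 0.37 and 0.40 in Control and -0.36, -0.34 and -0.32 in Prox1 OE, so that Tgfbr1 was the higher of the 2 in both Control tumours and the lower in all Prox1 OE tumours. The difference was -0.725 (exact two-sided permutation p = 0.10, adjusted p = 0.20). With the longest coding transcript as the length the ratios averaged 0.553 and -0.172, with the same difference.

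Tgfbr3 (ENSMUSG00000029287, chromosome 5, 107106570 to 107289629, minus strand), the co-receptor, was the lowest of the 10 genes per kilobase in both groups, with 269 and 457 normalised counts in Control and 319, 345 and 451 in Prox1 OE. The 2 Control libraries enclosed all Prox1 OE values. The log2 fold change of 0.07 had a 95% interval of -0.55 to 0.69 (SE 0.26, limma adjusted p = 0.86), the widest of the 10 genes, and 297 of its exon bases (4.54%) are shared with Gm43422 on the same strand. The log2 ratio of Tgfbr3 to Tgfbr2 differed by -0.0601 between the groups (exact p = 0.80), and changed sign to 0.412 without Control replicate 2 and to 0.215 without Prox1 OE replicate 1.

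All 3 Smads were lower in Prox1 OE. Smad3 (ENSMUSG00000032402, chromosome 9, 63646767 to 63757994, minus strand), which carries the signal from the receptor, had 1895 and 1932 normalised counts in Control and 1388, 999 and 943 in Prox1 OE. The Control libraries were close together and above all Prox1 OE libraries, of which replicate 1 was the highest. Smad3 changed by -0.81 on the log2 scale (SE 0.18, limma adjusted p = 0.014). Smad4 (ENSMUSG00000024515, chromosome 18, 73639009 to 73703780, minus strand), the common partner of the receptor-regulated Smads, had 2411 and 2375 in Control and 1744, 1438 and 1645 in Prox1 OE, a log2 fold change of -0.58 (SE 0.12, limma adjusted p = 0.013). Smad7 (ENSMUSG00000025880, chromosome 18, 75367529 to 75395935, plus strand), the inhibitor, had 1236 and 1319 in Control and 842, 773 and 873 in Prox1 OE, a log2 fold change of -0.62 (SE 0.13, limma adjusted p = 0.0099). For Smad4 and Smad7 too the groups were separate. The call of each of the 3 was lost without Control replicate 1 (limma adjusted p = 0.10 for Smad3, 0.12 for Smad4 and 0.089 for Smad7) and without Control replicate 2 (0.091, 0.092 and 0.10), and that of Smad3 also without Prox1 OE replicate 2 (0.054), while the log2 fold changes stayed between -0.98 and -0.50. The log2 ratio of Smad7 to Smad3 was -0.32 and -0.26 in Control and -0.43, -0.08 and 0.18 in Prox1 OE, which overlapped (difference 0.182, exact two-sided permutation p = 0.60). It was 0.342 without Prox1 OE replicate 1 and 0.0377 without Prox1 OE replicate 3.

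Tgfbi (ENSMUSG00000035493, chromosome 13, 56609523 to 56639562, plus strand), a secreted matrix protein that binds integrins and collagens, had 4020 and 4030 normalised counts in Control and 4457, 5607 and 5311 in Prox1 OE. Every Prox1 OE value was above both Control values, opposite to the ligands Tgfb2 and Tgfb3. Its log2 fold change was 0.34 (SE 0.13, 95% interval 0.04 to 0.65) and missed the threshold (limma adjusted p = 0.080). Without Prox1 OE replicate 1, the lowest of the 3 for this gene, it was 0.44 and passed (limma adjusted p = 0.013). Under total-count scaling, the values of Tgfb1, Tgfbr2, Tgfbr3 and Tgfbi turned to -0.34, -0.30, -0.36 and -0.09, while the median of all genes moved from -0.02 to -0.44. Relative to that median they were 0.10, 0.14, 0.08 and 0.35, and the 6 genes called lower were -1.80 to -0.57.

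**Figure D3:**
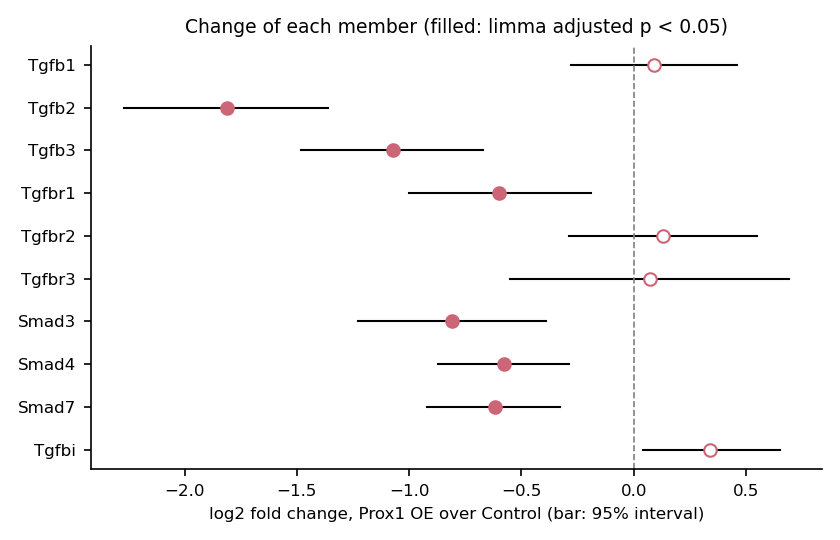
Log2 fold change of each of the 10 genes, Prox1 OE over Control, on the log2(normalised count + 1) scale (x axis), with bars of the 95% interval; filled points passed limma's adjusted p of 0.05. The 6 filled points lie between -1.81 and -0.58, and the 4 open points between 0.07 and 0.34, which turn negative under total-count scaling.

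In Control tumours the levels per kilobase of merged exons ran from Tgfbi (1067) through Tgfb3 (729), Smad4 (645), Tgfb2 (503), Tgfbr1 (415), Smad3 (345), Tgfbr2 (317), Smad7 (283) and Tgfb1 (221) to Tgfbr3 (55.4). Of these neighbours the ranges over libraries overlapped for Tgfb3 and Smad4 and for no other pair. In Prox1 OE tumours Tgfbi (1359) was again highest and Tgfbr3 (56.8) again lowest, and Tgfb2 moved from position 4 to position 9 (144) and Tgfb1 from position 9 to position 6 (236). From Smad4 at position 2 (433) to Tgfb2 at position 9, every neighbouring pair overlapped in range. With the longest coding transcript as the length, Tgfb1 stood at position 5 in Control and position 2 in Prox1 OE.

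Of 12969 genes with a mean of at least 100 normalised counts, the nearest to Tgfb2 in profile over the 5 libraries were Pdgfb (root mean square distance 0.05 on the log2 scale), Gfpt2 (0.08) and Dusp18 (0.09). Those nearest to Tgfb3 were Mlf1 (0.03), Pclaf (0.04) and Zfat (0.05). Pdgfb encodes a platelet-derived growth factor chain and Gfpt2 an enzyme of the hexosamine pathway. Their own log2 fold changes were -1.81 and -1.71.

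Another 119 genes of the TGF-beta family pathway were followed in 9 lists. Of the 112 tested, 10 were higher and 38 lower in limma (8.93% and 33.9%, against 17.1% and 16.2% of all genes), with a median log2 fold change of -0.34. The counts were 1 higher and 15 lower without Control replicate 1, where 3.98% and 2.79% of all genes were, and 6 higher and 17 lower without Control replicate 2, where 8.4% and 4.88% were. Under total-count scaling they were 7 higher and 74 lower, beside 8.62% and 39.9% of all genes.

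Of 15 genes of latency and activation 9 were lower (median -0.77), against 16.2% of all genes. In limma 0 were higher, against 17.1% of all genes, as in edgeR, DESeq2 and at an unadjusted limma p under 0.05. Without Prox1 OE replicate 1 the higher count was 1, beside 21.9% of all genes. Thbs1, a thrombospondin that activates the latent complex, had 2055 and 4071 normalised counts in Control and 918, 780 and 419 in Prox1 OE (log2 fold change -2.11, SE 0.38, limma adjusted p = 0.0071). Itgb8, the integrin chain that pairs with alpha-v to release latent TGF-beta, had 1852 and 1604 in Control and 539, 474 and 434 in Prox1 OE (-1.84, SE 0.15, limma adjusted p = 0.0017). Itgb6, another partner of alpha-v, had 423 and 441 in Control and 149, 130 and 98.4 in Prox1 OE (-1.79, SE 0.23, limma adjusted p = 0.0028). In all 3 the Prox1 OE values were below both Control values, as in 32.4% of all genes tested. Itgav, the alpha-v chain itself, chosen after its values were seen, was lower too (-1.14, limma adjusted p = 0.0020). The list had 5 lower genes without Control replicate 1 and 6 without Control replicate 2, where 2.79% and 4.88% of all genes were lower. Itgb6 is a gene of epithelium, and the cholangiocyte markers above were lower in the same libraries. Which cells carried Itgb8 here was not tested.

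Of the 20 TGF-beta target genes 12 were lower and 1 was higher (median -0.91), against 16.2% and 17.1% of all genes. Ccn2, connective tissue growth factor, had 10327 and 16278 normalised counts in Control and 1870, 6198 and 4441 in Prox1 OE (log2 fold change -1.80, SE 0.46, limma adjusted p = 0.023). Lox, which crosslinks collagen, had 1895 and 2663 in Control and 645, 730 and 671 in Prox1 OE (-1.72, SE 0.17, limma adjusted p = 0.0022). Control replicate 2 was the highest library for both, and the groups were separate with Prox1 OE lower, as in 32.4% of all genes tested. Has2, a hyaluronan synthase chosen after its values were seen, had the most negative value of the list (-3.09, limma adjusted p = 0.028) at a mean below 100 normalised counts. Snai2, a repressor of epithelial genes, was the gene that rose, from 115 and 123 to 186, 186 and 278 (0.83, limma adjusted p = 0.035), a call lost under total-count scaling (0.41), without the filter (limma adjusted p = 0.060) and without either Control replicate (0.79 and 0.88, limma adjusted p = 0.21 and 0.15) or without Prox1 OE replicate 2 or 3 (0.062 and 0.079). The call of Ccn2 was lost without Control replicate 1 (0.073) and without Control replicate 2 (0.14). The list had 6 lower genes without Control replicate 1 and 7 without Control replicate 2, beside the same 2.79% and 4.88% of all genes. Collagens and Acta2 in this list are also genes of fibroblasts and stellate cells, but are not among the 8 markers of these cells used above. Of those 8, Lrat, Reln and Colec11 were called higher and 0 were called lower. Not called were Ecm1 (0.59), Pdgfrb (-0.08), Pdgfra (-0.11), Hand2 (-0.21) and Des (-0.32). The part of these cells in the values of the target genes was not tested.

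**Figure D4:**
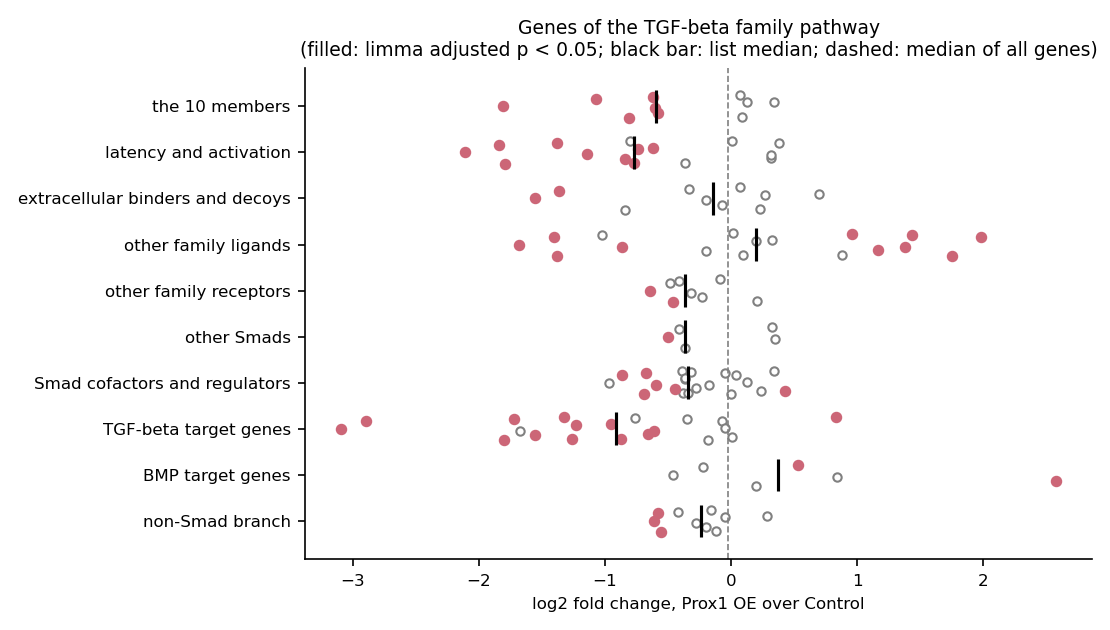
Log2 fold change, Prox1 OE over Control (x axis), of the tested genes of each list, the 10 main genes on top; filled points passed limma's adjusted p of 0.05, black bars mark list medians and the dashed line the median of all genes tested. Medians run from -0.91 for TGF-beta targets to 0.37 for BMP targets, under the deposited scaling; under total-count scaling all values shift lower by about the same amount as the median of all genes, which falls to -0.44.

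Of the 17 other ligands tested 6 were higher and 4 lower (median 0.20), against 17.1% and 16.2% of all genes. Gdf10, a BMP-like ligand, had 49.3 and 89.9 normalised counts in Control and 180, 302 and 347 in Prox1 OE (log2 fold change 1.98, limma adjusted p = 0.0073). Inhbe had 1870 and 2029 in Control and 7955, 4511 and 4128 in Prox1 OE (1.44, limma adjusted p = 0.0074). Gdf2 had 198 and 307 in Control and 509, 612 and 854 in Prox1 OE (1.38, limma adjusted p = 0.0092). Inhbe encodes an activin chain made mainly by liver, and Gdf2 a circulating ligand that acts on endothelium. Inhbb, another activin chain, had 1271 and 2171 in Control and 411, 655 and 510 in Prox1 OE (-1.68, limma adjusted p = 0.0048). Bmp6 had 4955 and 4617 in Control and 2060, 1860 and 1562 in Prox1 OE (-1.40, limma adjusted p = 0.0023). Bmp10 had 96.1 and 248 in Control and 46.0, 53.1 and 83.3 in Prox1 OE (-1.38, limma adjusted p = 0.049). Bmp6 is the ligand that sets hepcidin by iron, and Bmp10 a circulating relative of Gdf2. In these 6 genes, named because they were called, the groups did not overlap, as in 63.3% of all genes tested. The count of 4 lower stood beside 2769 of all genes lower. It fell to 2 under TMM scaling (2633 of all genes), upper-quartile scaling (2247), without the filter (2282) and without the variance trend (1929). It was also 2 without Prox1 OE replicate 1 (3753 of all genes) and without Prox1 OE replicate 2 (1740). Without Control replicate 1 the list had 1 higher gene, beside 3.98% of all genes, and the calls of Gdf10, Inhbe and Gdf2 were lost (limma adjusted p = 0.071, 0.066 and 0.092). Bmp10 lost its call without Control replicate 2 (-0.70, limma adjusted p = 0.35), without Prox1 OE replicate 1 or 2 (0.10 and 0.14), and under TMM (0.052) or upper-quartile scaling (0.060).

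Among BMP target genes, which answer the Smad1 and Smad5 arm, 2 of 6 were higher in limma and 0 lower, against 17.1% and 16.2% of all genes. The lower count was also 0 by edgeR, by DESeq2 and at an unadjusted limma p under 0.05. Under total-count scaling and without Prox1 OE replicate 1, 1 of the 6 was lower, beside 39.9% and 21.9% of all genes. Hamp, the iron hormone hepcidin, had 830 and 1787 normalised counts in Control and 4242, 7790 and 11789 in Prox1 OE (log2 fold change 2.58, SE 0.45, limma adjusted p = 0.0062). How the authors' counting treated reads shared with the close copy Hamp2 was not stated. Hamp is a hepatocyte gene, and the hepatocyte markers above were higher in the same libraries. Id3 had 3746 and 3627 in Control and 5363, 5236 and 5427 in Prox1 OE (0.53, SE 0.10, limma adjusted p = 0.0085), and 0.10 under total-count scaling, where it was not called (limma adjusted p = 0.53). The groups were separate for both with Prox1 OE higher, as in 30.9% of all genes tested. Hamp lost its call without Control replicate 1 (limma adjusted p = 0.057), and Id3 without either Control replicate (0.09 for each).

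In the other 5 lists 20.0% to 30.0% of tested genes were lower, to be read beside 16.2% for all genes. Of the binders and decoys 2 of 10 tested were lower, with Fstl3, an activin antagonist, at -1.36 (limma adjusted p = 0.0033). Of the other receptors 2 of 8 were lower, Bmpr1a (-0.64, limma adjusted p = 0.0064) and Bmpr2 (-0.46, limma adjusted p = 0.017), and of the other Smads 1 of 5, Smad5 (-0.50, limma adjusted p = 0.012). Of 21 Smad cofactors and regulators 5 were lower, among them the coactivator Ep300 (-0.86), the corepressor Tgif2 (-0.69) and the feedback inhibitor Pmepa1 (-0.67), and 1 was higher, the Smad phosphatase Ppm1a (0.43, limma adjusted p = 0.037), which stood at 0.00 under total-count scaling and lost its call without the filter (limma adjusted p = 0.064) and without the variance trend (0.085). In the non-Smad branch 3 of 10 were lower, Rock2 (-0.61), Rock1 (-0.58) and Traf6 (-0.55). Without Prox1 OE replicate 1 the lower counts were 4 binders, 4 receptors, 3 other Smads, 12 cofactors and 4 non-Smad genes. In that fit 21.9% of all genes were lower. Under total-count scaling the counts were 6, 5, 3, 15 and 9, beside 39.9% of all genes. Leaving out Control replicate 1 or Control replicate 2 left 1 Control library. The log2 fold changes were then -0.63 and -0.66 for Bmpr1a, -0.50 and -0.42 for Bmpr2, and -0.50 in both fits for Smad5. Without Prox1 OE replicate 2, and also without Prox1 OE replicate 3, 1 binder and 1 non-Smad gene were lower. Of all 17105 genes, 1740 and 1931 were lower in these fits. Apart from Fstl3 all genes named here lost their call without Control replicate 1 and without Control replicate 2, Ppm1a also without Prox1 OE replicate 3, and Rock1 and Traf6 also without Prox1 OE replicate 2 or 3.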

How the data were processed

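Bulk RNA-seq of 2 Control and 3 Prox1 OE tumours was analysed. The authors made dUTP libraries, mapped reads with STAR to mm10 (both per the labels' processing notes) and deposited a normalised count table, a signal per gene equal to reads divided by a DESeq2 size factor; the counting tool and its use of strand were not given in the sources used here. Every value was a whole multiple of 1 read (0.822 to 1.18 normalised counts), so whole reads were recovered for 100% of values (tolerance 1e-06), and unassigned sample columns numbered 0. A second deposited table held the authors' own fold changes and p-values and was not used. Replicates differed beyond counting error (chi-square over its degrees of freedom 36.2 for Control and 73.5 to 115 for Prox1 OE pairs), so each counted as 1 sample.

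Tests were run with limma 3.58.1 under R 4.3.3 (lmFit, eBayes with a trend, no covariate, two-sided) on log2(normalised count + 1) of the 17105 genes with a mean of at least 10, with Benjamini-Hochberg adjustment at 0.05. This scale understates changes of low genes. Ratios used levels per kilobase and exact permutation tests. Alternatives were TMM, upper-quartile and total-count scaling, pseudocounts of 0.1 and 10, no filter, a mean of at least 50, no trend, edgeR 4.0.16, DESeq2 1.42.0, a replicate block, each library left out, and another gene length. The procedure was tested on simulated data. Annotation was GENCODE for GRCm38, which matched 55137 identifiers (99.5%). The 10 genes and all lists were chosen with earlier results of these data known. The rule for other names took, per pathway list, up to 3 rises and 3 falls with the largest change among called genes with a mean of at least 100, and the 3 nearest profiles to each of the 2 most changed of the 10 genes. A gene that the rule took is not reported here.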

Additional observations from a re-analysis of the deposited data

How the results depend on the processing

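Of 160 values for the 10 genes under the alternatives, 136 kept direction and side of the threshold, 14 kept direction and lost the call, 1 gained it and 9 changed sign. The sign changes were those of genes that were not called. Tgfb1 gave -0.34 under total-count scaling and -0.03 without Control replicate 1 (up to 0.21 with another library left out). Tgfbr2 gave -0.30 and, without Prox1 OE replicate 1, -0.04 (up to 0.23). Tgfbr3 gave -0.36 under total-count scaling, -0.08 with the replicate block, -0.31 without Control replicate 1 and -0.08 without Prox1 OE replicate 3 (up to 0.45). Tgfbi gave -0.09 under total-count scaling. With each library left out in turn, 1 to 6 of the 10 genes were lower and 0 to 1 higher, 15 to 52 of the other pathway genes were lower and 1 to 15 higher, and 477 to 3753 of all genes were lower and 681 to 3738 higher. The lowest counts of lower genes were without Control replicate 1, the highest without Prox1 OE replicate 1. The log2 ratio of Tgfbr3 to Tgfbr2 differed by -0.532 to 0.412 between the groups across these fits, with 0.412 without Control replicate 2 and 0.215 without Prox1 OE replicate 1. Under total-count scaling, 74 of the other pathway genes were lower, and of all genes 1475 were higher and 6833 lower, since that scaling moved the median of all genes to -0.44. Of 416 values for the other 26 named pathway genes, 358 kept their call and 58 lost it, 17 of these genes without Control replicate 1 and 14 without Control replicate 2. Replicate numbers are shared by the groups, but nothing in the labels ties them, and deviations of same-numbered libraries correlated at 0.138 and 0.0156. Under the replicate block, fitted without Prox1 OE replicate 3, 6 of the 10 genes were lower, 10 of the other pathway genes were higher and 42 lower, and 2676 of all genes were higher and 2570 lower. In that fit Snai2 (0.64, limma adjusted p = 0.067) and Ppm1a (0.36, limma adjusted p = 0.096) were not called, and the other genes named by the rule kept their calls. Without the variance trend the limma adjusted p was 0.069 for Ccn2, 0.051 for Ep300, 0.059 for Tgif2, 0.067 for Rock1, 0.066 for Traf6 and 0.089 for Bmp10, and without the filter it was 0.050 for Tgif2 and 0.090 for Bmp10, none of which passed. The 10 genes had 292 or more reads in each library, while 2 Control libraries left every ratio test unable to go below an exact p of 0.10.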
